A study of Rattus norvegicus with 36 samples.

Results

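The genes described here encode the nuclear-encoded subunits of the mitochondrial respiratory chain and the ATP synthase in rat liver. They were taken by name: every gene whose symbol in the platform annotation starts with Nduf, Uqcr, Cox4, Cox5, Cox6, Cox7, Cox8 or Atp5, together with Sdha, Sdhb, Sdhc and Sdhd. This gave 86 of the 14217 genes that had at least 1 probe set with a single symbol. Where several probe sets shared a symbol, the brightest on average stood for the gene. By complex, there were 6 core subunits, 30 accessory subunits and 6 assembly factors of complex I, 4 members of complex II, 7 of complex III, 17 of complex IV and 16 of complex V, the ATP synthase. The prefixes also bring in 9 genes that encode no subunit: the 6 complex I assembly factors, the supercomplex factor Cox7a2l, the pseudogene Cox6c-ps1 and the ATP synthase inhibitor Atp5if1. Ndufa4 was kept with complex I by its name, although its protein is now placed in complex IV.

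The study measured liver RNA of male Sprague Dawley rats on 36 arrays. Hexabromocyclododecane (HBCD), a brominated flame retardant, was given in corn oil by oral gavage at 5 ml/kg body weight, daily for 5 days, to rats aged 7 weeks at the start. The 6 groups of 6 arrays each received corn oil alone (vehicle) or HBCD, at a lowest dose of 0.06 mg/kg, a highest of 641 mg/kg, or 0.641 mg/kg, 6.41 mg/kg or 64.1 mg/kg between them, and the left liver lobe was taken 1 day after the last dose. Replicates are numbered in the labels, but nothing there says that every array is from another rat, so the spread behind each p-value is that of the arrays and could be technical. All values are log2 probe set levels, a difference of 1 being a doubling, and groups are given as mean ± SD with n = 6.

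The respiratory chain passes electrons from NADH, through complex I, or from succinate, through complex II, to ubiquinone. Complex III hands them on to cytochrome c, and complex IV, cytochrome c oxidase, reduces oxygen. Complexes I, III and IV pump protons across the inner mitochondrial membrane, and the ATP synthase lets them flow back to make ATP. Liver is rich in mitochondria and uses this ATP for urea synthesis, gluconeogenesis and bile formation. Most subunits are encoded in the nucleus. A small core of complexes I, III, IV and V is encoded by mitochondrial DNA and was sampled here only through the genes of 2 cytochrome oxidase subunits.

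The array medians lay between 4.83 and 4.90. Of the 86 genes, 7 had a mean level below every array median, and 70 of the 77 true subunits lay above all of them. Hepatocyte markers, all 6 of them measured, had mean levels of 12.98 to 13.14 on the vehicle arrays and 12.86 to 12.95 at 641 mg/kg, so the 641 mg/kg arrays lay below the vehicle range, and none of the 6 was called. The median log2 difference of all 31042 tested probe sets from vehicle lay between -0.0073 and 0.00321 over the 5 doses.

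At every dose, the transcripts of most respiratory chain members differed from vehicle by less than 1.2-fold, and 1 member was called higher at the highest dose. A gene was called where the Benjamini-Hochberg adjusted p of the limma fit, taken over all 31042 probe sets, was under 0.05. At 641 mg/kg, 1 of 86 members was called, Atp5if1, which was higher, and none was lower. Of all probe sets tested, 1.65% were called at that dose, 1.13% higher and 0.512% lower, so 1 of 86 is near the background. The 95% interval of the difference lay within 1.2-fold in either direction for 78 of 86 members, against 61.9% of all probe sets. Among the 70 subunits above the array medians it did so for 68, the exceptions being Ndufa5 and Ndufb7. Of all gene probe sets above the array medians, it did so for 65.4%. In bulk liver, fewer cells of a type and less RNA per cell cannot be told apart.

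Replicate arrays differed little for these genes. The SD within groups had a median of 0.0544 over the 70 subunits, with a range of 0.0345 to 0.124. It had a median of 0.123 over all gene probe sets above the array medians. The number of arrays limits the precision. At 641 mg/kg 17 of 86 members had an unadjusted p under 0.05, as had 11.4% of all probe sets. Of gene probe sets above the array medians, 16.7% had. Of these members 6 were higher and 11 lower, where 6.05% and 5.39% of all probe sets were. None of the 16 besides Atp5if1 passed the adjustment.

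**Figure D1:**
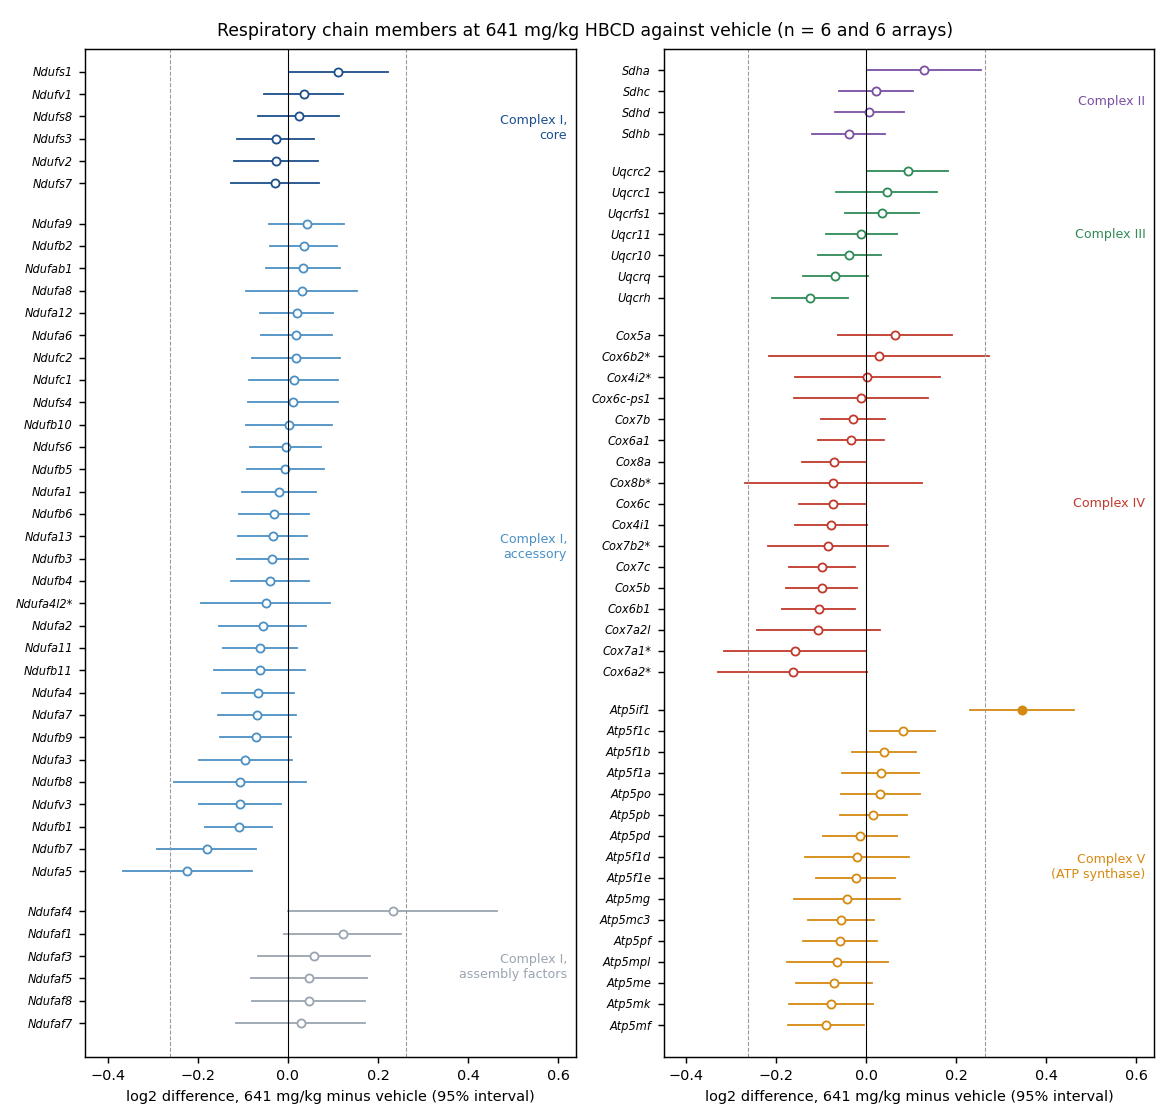
Each circle is the log2 difference of 1 member between 641 mg/kg HBCD and vehicle (6 arrays each) with its 95% interval, grouped by complex and ordered by size; dashed lines mark 1.2-fold, a filled circle marks an adjusted p under 0.05, and asterisks mark genes below every array median. Atp5if1 stands alone at 0.345, while Ndufa5 at -0.224 and Ndufb7 at -0.18 are the lowest and were not called.

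Atp5if1 encodes the inhibitory factor that binds the F1 head of the ATP synthase and stops it from hydrolysing ATP when the proton gradient collapses. On its probe set 1369588_a_at, the vehicle arrays ran from 8.29 through a median of 8.38 to 8.53, and the 641 mg/kg arrays from 8.52 through 8.72 to 8.95. Only the lowest array at 641 mg/kg lay inside the vehicle range. The mean rose from 8.40 ± 0.08 to 8.74 ± 0.16, a 1.27-fold rise (95% CI 1.17 to 1.38; limma adjusted p = 2.86e-04). In an exact two-sided permutation test of the 12 arrays alone, p was 0.004329, where the smallest value that 924 splits can give is 0.002165.

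At the 4 lower doses Atp5if1 stayed near vehicle. Its group means were 8.36 ± 0.07 at 0.06 mg/kg, 8.42 ± 0.07 at 0.641 mg/kg, 8.44 ± 0.05 at 6.41 mg/kg and 8.32 ± 0.08 at 64.1 mg/kg. Against 64.1 mg/kg, whose arrays ran from 8.20 to 8.41, the 641 mg/kg arrays did not overlap. That difference was 1.34-fold (95% CI 1.24 to 1.45; limma adjusted p = 7.62e-05; exact permutation p = 0.002165, the smallest possible). Between these doses 1 of 86 members was called, against 0.242% of all probe sets, 0.19% higher and 0.0515% lower. Atp5if1 was also the only member called in the F test of any difference among the 6 groups (limma adjusted p = 9.68e-05), where 0.773% of all probe sets were called.

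The other 2 probe sets of Atp5if1 did not repeat this pattern. On 1371229_at the vehicle mean was 5.28 ± 0.11 and the 641 mg/kg mean 5.59 ± 0.22, a called difference (1.25-fold, 95% CI 1.10 to 1.41; limma adjusted p = 0.0477). There every lower dose also had a mean above vehicle, between 5.46 and 5.51, and 641 mg/kg did not stand apart from 64.1 mg/kg. On 1371230_x_at the 2 groups had means of 5.50 ± 0.24 and 5.49 ± 0.26 and were not called (limma adjusted p = 0.997). When the 3 probe sets were averaged, Atp5if1 was not called against vehicle (log2 difference 0.22, adjusted p = 0.0503) or against 64.1 mg/kg (0.168, adjusted p = 0.316). The call at 641 mg/kg was thus made on 2 of the 3 probe sets, and the step between 64.1 and 641 mg/kg on 1.

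**Figure D2:**
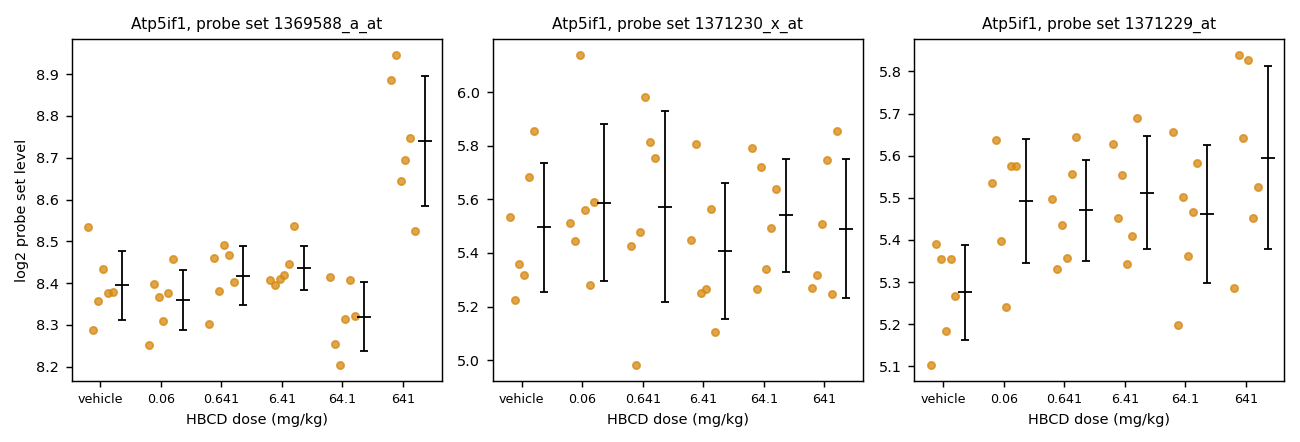
Log2 levels of the 3 Atp5if1 probe sets on each of the 36 arrays by HBCD dose; points are arrays, and bars give the mean ± SD of 6. On 1369588_a_at, 5 of the 6 arrays at 641 mg/kg lie above every other array, on 1371230_x_at all groups overlap, and on 1371229_at every dose mean lies above vehicle.

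No member was called at 0.06, 0.641, 6.41 or 64.1 mg/kg, where 0%, 0%, 0% and 0.0419% of all probe sets were called. The unadjusted p was under 0.05 in 2, 2, 2 and 1 of 86 members at these doses, against 4.17%, 4.76%, 4.13% and 5.94% of all probe sets. The interval lay within 1.2-fold for 82, 82, 82 and 84 members, against 68.6%, 67.8%, 68.7% and 67.3% of all probe sets. For gene probe sets above the array medians the shares were 75.3%, 74.5%, 76.6% and 73%. Cox5a, a matrix-side subunit of complex IV, had the highest difference at each of the lowest 3 doses, 0.13, 0.13 and 0.15, with adjusted p-values of at least 0.999. On this probe set the level of Cox5a was 8.12 ± 0.08 in vehicle and 8.18 ± 0.10 at 641 mg/kg. A brighter probe set carries the symbols of Cox5a and a near-identical copy and was not used for the gene. Its mean was 11.68, against 8.20 for the one used. There the differences at the lowest 3 doses were -0.0052, 0.0084 and 0.00061. At 0.06, 0.641, 6.41 and 64.1 mg/kg, 60, 63, 69 and 48 of 86 members lay above the vehicle mean. Of all probe sets, 48.2%, 48.9%, 49.4% and 51.6% did. All comparisons with vehicle share the same 6 vehicle arrays, so these counts are not independent.

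Along the dose order, 3 members were called. The slope was fitted with the 6 groups placed 1 step apart, and 1.35% of all probe sets were called by it, 0.902% rising and 0.445% falling. Atp5if1 rose (0.0464 log2 units per step; limma adjusted p = 0.00568), and Ndufb1 and Uqcrh fell. With the 3 probe sets of Atp5if1 averaged, its slope was 0.027 and not called (adjusted p = 0.229). Ndufb1 and Uqcrh encode a small accessory subunit of the complex I membrane arm and the hinge protein that sits beside cytochrome c1 in complex III.

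Ndufb1 ran from 10.73 through 10.79 to 10.82 on the vehicle arrays, from 10.64 through 10.71 to 10.82 at 64.1 mg/kg, and from 10.63 through 10.68 to 10.70 at 641 mg/kg. All 6 arrays at 641 mg/kg lay below all vehicle arrays, while the 64.1 mg/kg group spanned both. The slope was -0.0244 per step (95% CI -0.0371 to -0.0118; limma adjusted p = 0.0363). The difference at 641 mg/kg alone was 1.08-fold lower (95% CI 1.02 to 1.14) and was not called (limma adjusted p = 0.152; exact permutation p = 0.002165). After rounding, the adjusted p of the slope was 0.05 or above in 13 of 36 fits that left out 1 array, up to 0.0755. The lowest of these, 0.05, lies at the threshold itself. The arrays left out in these 13 fits were vehicle replicates 2, 4, 5 and 6, replicates 1, 2 and 5 of 0.06 mg/kg, replicates 2, 5 and 6 of 64.1 mg/kg, and replicates 1, 2 and 3 of 641 mg/kg. The slope was not called with each array centred on its median (adjusted p = 0.0633).

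Uqcrh ran from 11.10 through 11.16 to 11.19 on the vehicle arrays, from 10.98 through 11.03 to 11.13 at 64.1 mg/kg, and from 10.94 through 11.03 to 11.12 at 641 mg/kg. Both higher doses sat mostly below vehicle, overlapping it at their upper end. The slope was -0.0269 per step (95% CI -0.0412 to -0.0126; limma adjusted p = 0.044). Against vehicle, the 641 mg/kg mean was 1.09-fold lower (95% CI 1.03 to 1.16) and not called (limma adjusted p = 0.15; exact permutation p = 0.01082). At 64.1 mg/kg the log2 difference was -0.11 (adjusted p = 0.7). The slope was not called in 23 of 36 fits without 1 array, with adjusted p-values of 0.0509 to 0.107, the latter without replicate 5 of 641 mg/kg. The others were vehicle replicates 2, 3, 4 and 6, replicates 2, 3, 5 and 6 of 0.06 mg/kg, replicates 4, 5 and 6 of 0.641 mg/kg, replicates 1, 3, 4 and 6 of 6.41 mg/kg, replicates 1, 2, 5 and 6 of 64.1 mg/kg, and replicates 3, 4 and 6 of 641 mg/kg. With each array centred on its median, the adjusted p was 0.0988.

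**Figure D3:**
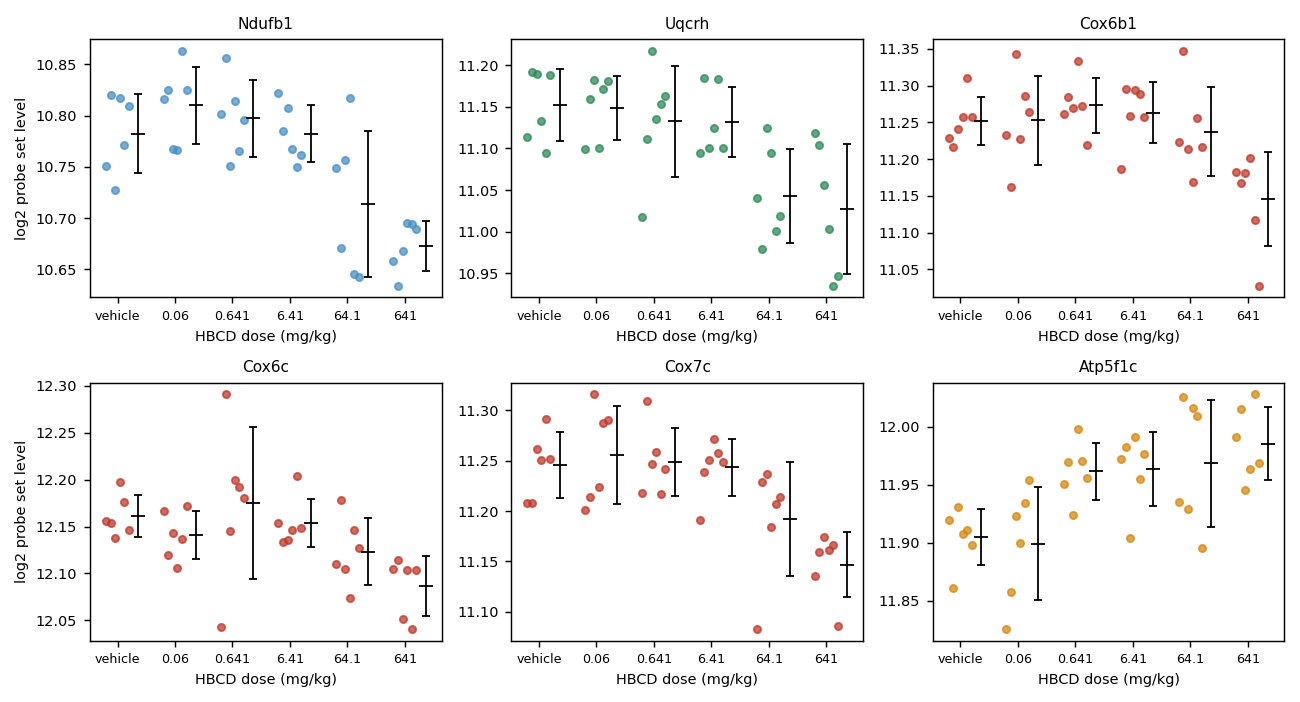
Log2 levels on each of the 36 arrays by HBCD dose for Ndufb1, Uqcrh, Cox6b1, Cox6c, Cox7c and Atp5f1c; points are arrays, and bars give the mean ± SD of 6. All 6 arrays at 641 mg/kg lie below the vehicle arrays for Ndufb1, Cox6b1, Cox6c and Cox7c and above them for Atp5f1c, each by a small step on a narrow axis.

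The DNA just before the start of the 3 members called along the dose order is shown because the slope test called these genes. The 250 bases before each annotated start come from RefSeq on the GRCr8 assembly, all 3 on the minus strand, and are printed 5′ to 3′ along the gene. They lie at chr5:150026678-150026927 for Atp5if1, chr6:126888865-126889114 for Ndufb1 and chr5:134790883-134791132 for Uqcrh. Capitals mark matches to the motifs searched.
Atp5if1: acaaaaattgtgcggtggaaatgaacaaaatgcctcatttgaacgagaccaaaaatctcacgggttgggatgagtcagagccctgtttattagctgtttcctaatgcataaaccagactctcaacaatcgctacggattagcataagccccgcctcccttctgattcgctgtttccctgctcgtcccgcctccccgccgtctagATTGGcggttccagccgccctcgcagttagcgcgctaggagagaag
Ndufb1: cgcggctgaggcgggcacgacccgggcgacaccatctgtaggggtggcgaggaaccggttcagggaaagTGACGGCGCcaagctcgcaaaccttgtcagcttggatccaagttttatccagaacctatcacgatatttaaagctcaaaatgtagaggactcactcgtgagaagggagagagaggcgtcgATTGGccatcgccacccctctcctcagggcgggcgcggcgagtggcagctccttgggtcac
Uqcrh: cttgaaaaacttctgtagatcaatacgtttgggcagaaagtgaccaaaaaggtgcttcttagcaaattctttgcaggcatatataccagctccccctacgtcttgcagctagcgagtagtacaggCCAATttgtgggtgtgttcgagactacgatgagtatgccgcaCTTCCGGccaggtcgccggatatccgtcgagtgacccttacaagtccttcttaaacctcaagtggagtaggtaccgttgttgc

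Each motif was searched on both strands in this window: the NRF1 palindrome GCGCATGCGC, the ETS core CCGGAAG bound by GABP, the antioxidant response element core TGACNNNGC, and the CCAAT box CCAAT. The CCAAT box, written ATTGG where it lies on the opposite strand, was found in all 3 printed sequences. The Ndufb1 sequence also held the antioxidant response element letters, and the Uqcrh sequence held the ETS core on the opposite strand, as CTTCCGG. None of these matches overlapped another. A match is a description of letters and was not tied to a factor or to the response.

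Of the 86 members, 78 had an entry in the promoter table. Among them 5 (6.41%) held the NRF1 motif, namely Atp5me, Atp5po, Ndufa11, Ndufaf4 and Ndufaf5, against 1.48% of 11701 array genes with an entry and 0.852% of all 27457 promoters. The ETS core was found in 21 (26.9%), against 12.9% and 7.78%. Those 21 included Sdhb, Sdhd, Ndufs1, Ndufs8, Uqcrc2, Cox5b, Cox8a and Atp5f1a. The antioxidant response element was found in 9 (11.5%), against 12.3% and 10.2%, and the CCAAT box in 26 (33.3%), against 35.1% and 34.2%. The median GC content was 55.2% for members, 59.2% for array genes and 52.0% for all promoters.

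Complex I, the NADH dehydrogenase, had no member called against vehicle at any dose. Its 6 measured core subunits, most of which hold the flavin or an iron-sulfur cluster, had a median difference of -0.00182 at 641 mg/kg. Ndufs1, the largest of the iron-sulfur subunits, was the highest at 0.11 (limma adjusted p = 0.421), with 10.19 ± 0.11 in vehicle and 10.30 ± 0.08 at 641 mg/kg. Ndufv1, which binds NADH and the flavin, differed by 0.03, and Ndufs7, which holds the last cluster before ubiquinone, by -0.03. At 64.1 mg/kg all 6 core subunits lay above the vehicle mean, by 0.01 to 0.09, without a call. Of all 86 members 48 did so at that dose, as did 51.6% of all probe sets.

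The 30 accessory subunits had a median of -0.0343 at 641 mg/kg, 20 of them below 0. Ndufa5, a subunit of the matrix arm, was the lowest. Its vehicle arrays ran from 9.51 through 9.68 to 9.88 and its 641 mg/kg arrays from 9.23 through 9.39 to 9.65, with wide overlap. The log2 difference was -0.22 (95% CI -0.37 to -0.08; limma adjusted p = 0.117). Ndufb7, which faces the intermembrane space, went from 10.55 ± 0.07 to 10.37 ± 0.13, a difference of -0.18 (95% CI -0.29 to -0.07; limma adjusted p = 0.0868). Of the 30 intervals, 28 lay within 1.2-fold.

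The 6 complex I assembly factors were all above the vehicle mean at 641 mg/kg, with a median of 0.0523 and no call. Ndufaf4 went from 8.23 ± 0.17 to 8.46 ± 0.22 (log2 difference 0.23, 95% CI 0.00 to 0.46; limma adjusted p = 0.435). Ndufaf1, a partner of Acad9 in the assembly of the membrane arm, differed by 0.12 (adjusted p = 0.489). Ndufaf8 had its highest difference at 6.41 mg/kg, 0.12, and stood at 0.05 at 641 mg/kg. This group had the most variable arrays of any class, with an SD of array medians of 0.0859.

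Complex II, succinate dehydrogenase, is encoded by 4 nuclear genes and also serves the citric acid cycle. None was called at any dose. Sdha, the flavoprotein that oxidises succinate, ran from 10.60 through 10.72 to 10.90 on the vehicle arrays and from 10.78 through 10.86 to 10.90 at 641 mg/kg, within the upper part of the vehicle range. Its difference of 0.13 (95% CI 0.00 to 0.26) was not called (limma adjusted p = 0.418). The iron-sulfur subunit Sdhb differed by -0.04, and the membrane anchors Sdhc and Sdhd by 0.02 and 0.01, with adjusted p-values of 0.791 to 0.972. For all 4 the interval lay within 1.2-fold.

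Complex III, the cytochrome bc1 complex, had 3 members above and 4 below the vehicle mean at 641 mg/kg, with a median of -0.0107. These members leave out cytochrome c1, Cyc1, whose symbol does not match the prefixes. Uqcrh was the lowest, as described, and Uqcrq, a small membrane subunit, was next at -0.07 (limma adjusted p = 0.475). The core protein Uqcrc2 was the highest, with 11.00 ± 0.07 in vehicle and 11.09 ± 0.05 at 641 mg/kg (difference 0.09; adjusted p = 0.415). All 7 intervals lay within 1.2-fold.

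Complex IV, cytochrome c oxidase, had the lowest median of any class at 641 mg/kg, -0.0747, with 14 of 17 members below the vehicle mean and none called. Of its 9 subunits above the array medians, 8 were below 0, and all 9 intervals lay within 1.2-fold. Cox5a was above 0, at 0.06, while its brighter shared probe set differed by -0.07 (limma adjusted p = 0.496). Cox6b1, on the intermembrane-space side where it joins oxidase monomers, went from 11.22 to 11.31 on the vehicle arrays and from 11.03 to 11.20 at 641 mg/kg. Cox7c, a single-helix subunit, went from 11.21 to 11.29 and from 11.09 to 11.17. In both, and in Cox6c, no array at 641 mg/kg reached the vehicle range.

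The sizes were small. Cox6b1 was 1.08-fold lower (95% CI 1.02 to 1.14; limma adjusted p = 0.233), Cox7c 1.07-fold (adjusted p = 0.211), and Cox6c 1.05-fold (adjusted p = 0.437). Cox5b, which binds zinc on the matrix side, differed by -0.10 (adjusted p = 0.266). Cox4i1, the largest nuclear-encoded subunit, ran from 11.95 to 12.05 in vehicle and from 11.90 to 11.96 at 641 mg/kg (adjusted p = 0.446), and Cox8a differed by -0.07 (adjusted p = 0.41). The supercomplex factor Cox7a2l differed by -0.11 (adjusted p = 0.596).

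Ndufb1, Cox6b1, Cox6c and Cox7c were the 4 members with all 641 mg/kg arrays below all vehicle arrays, and Atp5f1c was the 1 member with all above. Among all probe sets, 0.654% were separated downward and 1.06% upward. None of these 5 was called at 641 mg/kg. They were picked out after their values were seen.

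The tissue isoforms of complex IV had low probe set levels in liver. Cox4i2, Cox6a2, Cox6b2, Cox7a1, Cox7b2 and Cox8b, the lung, muscle or testis forms, had means of 2.87 to 4.16, below every array median. Their widely used partners Cox4i1, Cox6a1, Cox6b1, Cox7b and Cox8a had means above every array median. The hypoxia-linked Ndufa4l2, at 3.61, was the remaining member below the array medians. At 641 mg/kg, Cox6a2 differed by -0.16 (limma adjusted p = 0.444) and Cox7a1 by -0.16 (adjusted p = 0.433), while Cox4i2 at 0.00 and Cox6b2 at 0.03 changed sign in some fits that left out 1 array. Of 6 striated muscle markers measured, 5 lay below every array median, and none was called.

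Complex V, the ATP synthase, had 16 members, of which Atp5if1 was called. The other 15 had a median of -0.0234 at 641 mg/kg, between -0.0898 and 0.0806, with every interval within 1.2-fold. The catalytic head subunits Atp5f1a and Atp5f1b differed by 0.03 and 0.04 (limma adjusted p = 0.851 and 0.761). Atp5f1b had means of 12.78 ± 0.03 in vehicle and 12.82 ± 0.03 at 641 mg/kg. Atp5f1c, the rotating central stalk, ran from 11.86 to 11.93 in vehicle and from 11.95 to 12.03 at 641 mg/kg, 1.06-fold higher (95% CI 1.01 to 1.11; adjusted p = 0.345).

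In the membrane part of the ATP synthase, Atp5mc3, Atp5me, Atp5mf, Atp5mg, Atp5mk and Atp5mpl had means below vehicle at 641 mg/kg. None of them was called. A probe set shared by Atp5mc1 and a copy went the other way, at 0.03, as did the dimmer one of Atp5me, at 0.04. Atp5mf, subunit f, differed by -0.09 (limma adjusted p = 0.39), with 11.67 ± 0.09 in vehicle and 11.58 ± 0.02 at 641 mg/kg. Atp5mc3, 1 of the genes for the proton-carrying c ring, differed by -0.06 from vehicle (adjusted p = 0.596). Its 641 mg/kg arrays, at 12.40 to 12.48, lay below all arrays at 64.1 mg/kg, at 12.50 to 12.58. Cox6a1 and Cox6a2 were likewise separated downward between these doses, as were 0.287% of all probe sets, and Atp5if1 upward, as were 0.412%. At 6.41 mg/kg, 16 of 16 members of complex V lay above the vehicle mean, by 0.01 to 0.09, and none was called. Of all 86 members 69 did so at that dose, as did 49.4% of all probe sets.

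Summarised by array, each array's median deviation over the members of a class from their vehicle means shows how small these shifts were. Over all members it ran from -0.03 to 0.03 on the vehicle arrays, from -0.03 to 0.02 at 64.1 mg/kg and from -0.06 to 0.01 at 641 mg/kg. For complex IV, the vehicle arrays ran from -0.037 to 0.023 and the 641 mg/kg arrays from -0.103 to -0.041. All 6 thus lay below the vehicle range, by a narrow gap. The complex IV median covers all 17 members, including the 6 below every array median. For complex V the ranges were -0.03 to 0.03 and -0.04 to 0.03, and for complex II -0.05 to 0.02 and -0.04 to 0.07, with overlap in both. Over all gene probe sets above the array medians, the median difference at 641 mg/kg was -0.000341 and 49.8% were above 0. The complex IV median stayed negative when arrays were centred on their medians (-0.0649) and when quantile normalization was repeated (-0.0619). These medians carry no test.

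**Figure D4:**
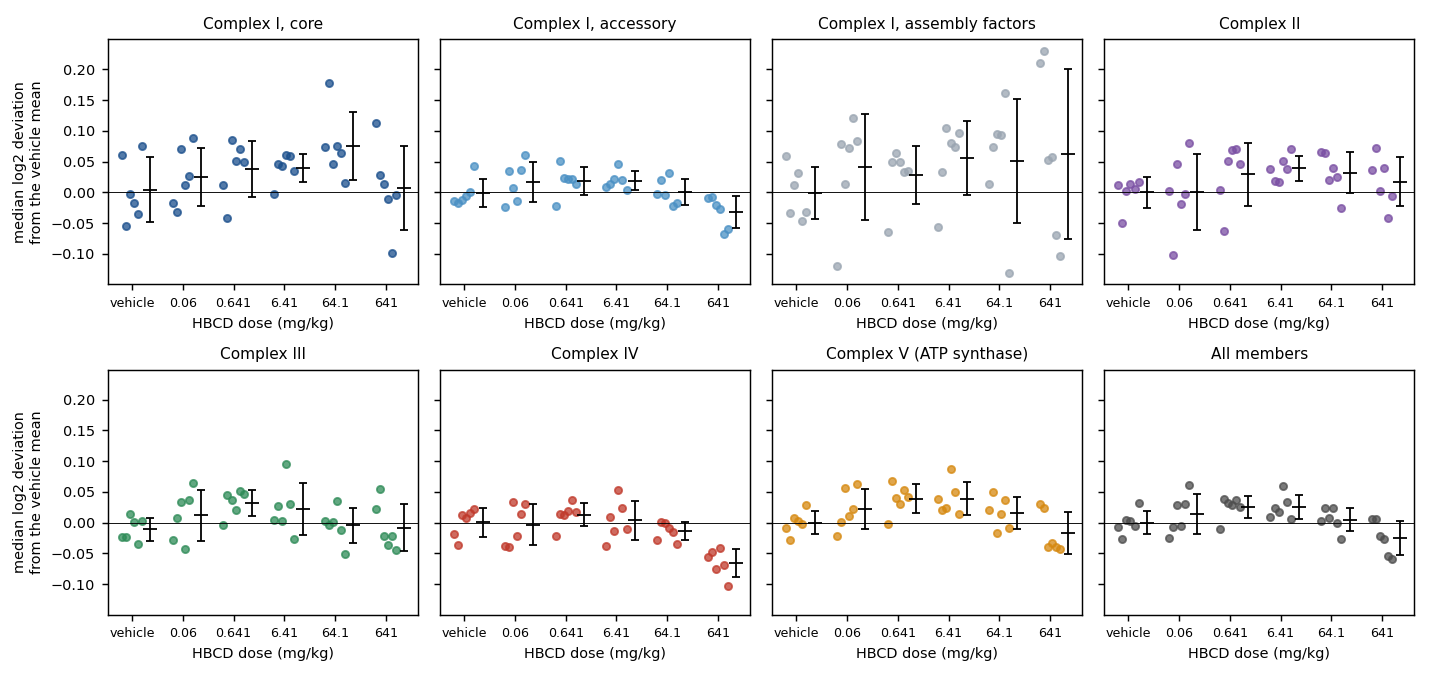
Each point is 1 array's median log2 deviation from the vehicle mean over the members of a class, by HBCD dose, for 7 classes and for all 86 members; bars give the mean ± SD of 6 arrays. For complex IV all 6 arrays at 641 mg/kg lie between -0.103 and -0.041, narrowly below the lowest vehicle array at -0.037. In the other panels the 641 mg/kg and vehicle arrays overlap.

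Between 641 and 64.1 mg/kg, the highest doses, 62 of 86 members were lower at 641 mg/kg and 24 higher, with a median of -0.0351. Of all probe sets 46.7% were higher, with a median of -0.00789. Of gene probe sets above the array medians 54.3% were higher, with a median of 0.0101. The unadjusted p was under 0.05 in 13 members, of which 2 were higher and 11 lower, where 4.45% and 4.7% of all probe sets were. Atp5if1 was the single call. Some of the 64.1 mg/kg arrays had low levels of macrophage markers. Of these, 7 of 8 were measured, their mean level ran from 7.44 to 8.35 at 64.1 mg/kg, from 8.05 to 8.48 at 641 mg/kg and from 8.29 to 8.64 in vehicle, and none was called. Without replicates 2, 3 and 4 of 64.1 mg/kg, in which these markers stood lowest, Atp5if1 was still called, and Uqcrh was not called along the dose order. The part of the hepatocyte and macrophage markers in the other member values was not tested.

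Some probe sets carry the symbols of both a subunit gene and a near-identical copy and were assigned to neither. There were 7, for Atp5mc1, Atp5mc2, Cox5a, Cox7a2, Ndufa10, Ndufs5 and Uqcrb, of which Cox5a also had a probe set of its own. None was called against vehicle. The probe set shared by Cox7a2 and Cox7a2l2 fell along the dose order (-0.0246 per step; limma adjusted p = 0.0463), with a log2 difference of -0.11 at 641 mg/kg (adjusted p = 0.155). Of the 86 members, 9 had over 1 probe set. In 5 of these the probe sets differed in sign at 641 mg/kg: Atp5if1, Atp5me, Atp5po, Ndufa9 and Ndufv3. For Ndufv3 the log2 differences were -0.11 and 0.13, with neither called.

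Around the chain itself, 9 other lists of mitochondrial genes held 4 called genes at 641 mg/kg among 194 measured, 2.06%, near the 1.65% of all probe sets. Among 42 of 45 measured assembly factors outside the 86 genes, Acad9 was called higher and none was called lower. Acad9 is an acyl-CoA dehydrogenase relative that serves complex I assembly together with Ndufaf1. Its vehicle arrays ran from 9.05 through 9.17 to 9.39 and its 641 mg/kg arrays from 9.57 through 9.63 to 9.73, without overlap. The rise was 1.38-fold (log2 difference 0.46, 95% CI 0.34 to 0.58; limma adjusted p = 4.47e-06), and it was also called against 64.1 mg/kg (1.23-fold; adjusted p = 0.0184). The median of that list was 0.0526.

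Of 13 measured genes, from a list of 16, for cytochrome c1 and ubiquinone synthesis, none was called. Cytochrome c itself, Cycs, had no single-symbol probe set. The smallest p was that of the flavin monooxygenase Coq6 (0.16, limma adjusted p = 0.254). Cyc1, for cytochrome c1, differed by -0.09 (limma adjusted p = 0.511). It is a complex III subunit whose symbol does not match the prefixes. Among 8 enzymes that feed ubiquinone outside complexes I and II, Prodh, proline dehydrogenase, was called lower and none was called higher. It went from 9.05 ± 0.17 to 8.49 ± 0.11, 1.48-fold lower (95% CI 1.29 to 1.68; limma adjusted p = 3.08e-04), with the highest 641 mg/kg array, at 8.66, below the lowest vehicle array, at 8.81. These values are those of the brightest probe set of Prodh, and the size depended on the processing. The alternatives included averaging the probe sets of a gene. Over 44 alternative fits, the log2 difference of Prodh lay between -0.61 and -0.294, against -0.561 in the fit reported. It was called in all of them (limma adjusted p at most 0.0399). At 64.1 mg/kg its mean was 8.76 ± 0.22, between both.

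Regulators of mitochondrial biogenesis were all measured, 19 of 19, and Mterf4, a factor of mitochondrial ribosome assembly, was the 1 called. It went from 8.62 ± 0.11 to 8.85 ± 0.04, 1.17-fold higher (95% CI 1.09 to 1.26; limma adjusted p = 0.0128). It was not called without vehicle replicate 3 (adjusted p = 0.0506) or with only these 2 groups in the fit (adjusted p = 0.0866). The coactivator Ppargc1a had the highest difference of the list, 0.40, on variable arrays (vehicle 4.68 ± 0.35, adjusted p = 0.257). Tfam, which packages mitochondrial DNA, differed by 0.09 (adjusted p = 0.497), and Nrf1, a transcription factor for respiratory genes, by -0.09 (adjusted p = 0.833).

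Of 73 mitochondrial ribosomal protein genes, Mrpl49 was called higher (0.25, limma adjusted p = 0.0225) and none was called lower. The median was 0.0123. Mrpl49 was not called without vehicle replicate 2 or 4 or replicate 1 or 2 of 641 mg/kg (adjusted p = 0.0526 to 0.0816), or with only these 2 groups in the fit (adjusted p = 0.0589). No gene was called among 11 citric acid cycle genes (median 0.065), 11 carriers, porins and uncouplers (0.0108), 15 mitochondrial chaperones, proteases and stress genes (0.0765) or the mitochondrially encoded genes for cytochrome oxidase subunits 1 and 2. The leading members were Dld (0.11; adjusted p = 0.456), Vdac1 (0.12; adjusted p = 0.16) and Htra2 (0.15; adjusted p = 0.141). Mt-co1 differed by 0.06 (adjusted p = 0.875), and its sign turned without vehicle replicate 5. None of these lists had a call at the 4 lower doses.

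**Figure D5:**
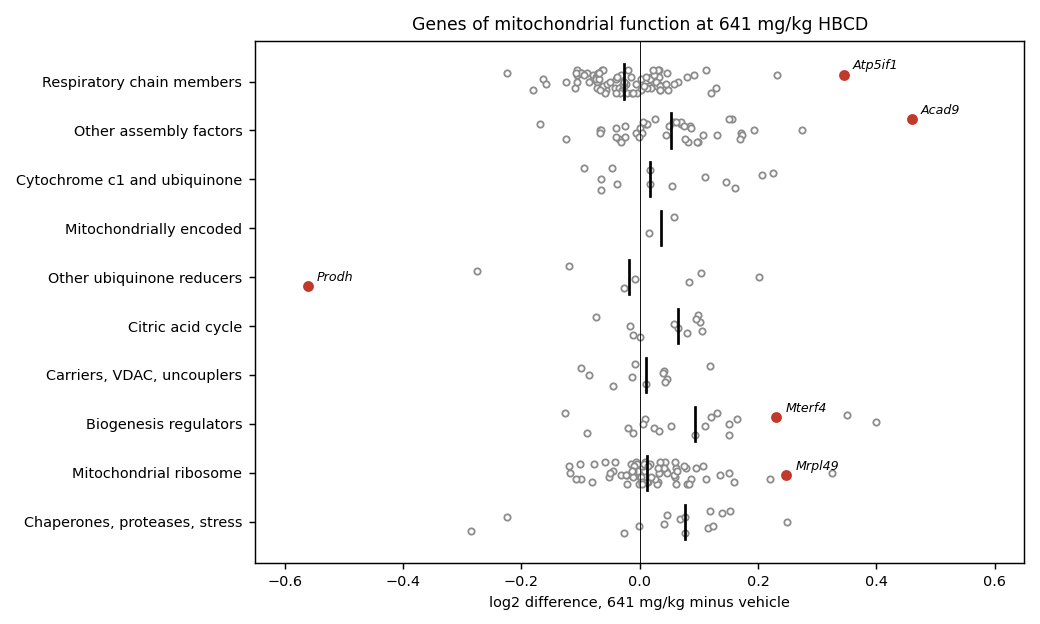
Each circle is the log2 difference of 1 gene between 641 mg/kg HBCD and vehicle for the respiratory chain members and 9 other lists of mitochondrial genes; black bars mark list medians and filled red circles genes with an adjusted p under 0.05. Acad9 at 0.46 and Prodh at -0.56 lie farthest out, and the respiratory chain members cluster tightly around -0.03.

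As a measure of RNA quality, for Gapdh and actin, 3-prime minus 5-prime control probe set levels gave exact permutation p-values of 0.18 and 0.597 for 641 mg/kg against vehicle.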

How the data were processed

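Liver RNA of 36 samples was labelled and hybridised to expression arrays, per the labels' protocols. The deposited values are log2 probe set levels, and the submitters' processing notes name RMA and affy. RMA subtracts background, applies quantile normalization and combines the probes of a set; settings are not given in the sources used here. That the scale is log2 was judged from the range, 1.53 to 14.59. No detection calls were used, so dim probe sets were not separated from the rest.

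Groups came from the sample labels. Of 31099 probe sets, 57 controls were left out. Gene names came from the platform annotation: 20826 probe sets had 1 symbol, 436 several and 9780 none. All 86 members' symbols matched the current RefSeq symbol by gene identifier. No arrays were identical.

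A linear model over all 36 arrays (limma 3.58.1, R 4.3.3) gave each dose against vehicle, 641 against 64.1 mg/kg, a slope over dose order and an F test. P-values were adjusted by Benjamini-Hochberg within each comparison over 31042 probe sets, with a threshold of 0.05. The submitters' design text names another package at a 5% false discovery rate, which was not used here. Single genes were also tested by exact permutation of arrays. The fit was also tested on simulated data.

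The members and gene lists were chosen with earlier results of these data known. The named genes were the called members, per class the 2 members with the smallest F p and the 2 largest differences at 641 mg/kg, complex II, the isoform pairs of complex IV, the leading genes of each other list, and 5 regulators and carriers, of which Cycs had no single-symbol probe set. Other genes were picked after their values were seen. Same-numbered replicates of different groups did not deviate together (correlation -0.252 to 0.321 over 90 pairs, median 0.0248, 14 over 0.1), so the numbers were not taken as pairs. Alternatives covered a replicate block, array scaling, a filter on dim probe sets, variance models, array weights, averaging of probe sets, the groups fitted, subunits only and leaving out each array. The alternative without 3 arrays of 64.1 mg/kg was chosen after seeing the data.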

Additional observations from a re-analysis of the deposited data

Results flagged for a closer look

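Of 180 groups of 6 arrays tested over the named members, 11 held an array whose gap to the nearest other array, as a share of the group's range, exceeded the 95% critical value of Dixon's test, which chance passes in about 5% of groups. Replicate 2 of 0.641 mg/kg was the lowest array of its group in 3 members: Sdha at 10.455 (next 10.804), Sdhd at 11.503 (next 11.617) and Atp5mf at 11.635 (next 11.708). Replicate 2 of 641 mg/kg was the lowest for Cox6a1 at 11.587 (next 11.599) and Cox4i2 at 3.1562 (next 3.4356). Atp5if1 had its highest array at 6.41 mg/kg in replicate 6, at 8.5378 (next 8.4461). Ndufs7 had a high array in replicate 2 of 64.1 mg/kg, at 10.778 (next 10.631), and Cox6a2 in replicate 4 of 6.41 mg/kg, at 4.3308 (next 3.9987). Among vehicle arrays, Cox5b was lowest in replicate 2 at 11.548 (next 11.602) and Cox7a1 in replicate 4 at 3.9194 (next 4.1382). Cox6b1 was lowest in replicate 1 of 6.41 mg/kg, at 11.186 (next 11.257).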

How the results depend on the processing

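The count of members called at 0.06, 0.641, 6.41 and 64.1 mg/kg was 0 under every alternative run. At 641 mg/kg it was 1 in the fit reported and in each of the 36 fits without 1 array, always 1 (Atp5if1). With the mean of a gene's probe sets it was 1 as well, but Ndufb7 was called (adjusted p = 0.0444) and Atp5if1 was not. It was 6 with only probe sets of a group mean of at least 6 (Atp5if1 higher; Cox7c, Ndufa5, Ndufb1, Ndufb7 and Uqcrh lower), where fewer probe sets are tested, 2 with a variance trend and robust moderation (Atp5if1, Ndufb7) and 3 with array weights (Atp5if1, Ndufa5, Ndufb7). The F test gave 4 and 3 members in place of 1 with that filter and with the variance trend, and called Ndufb1 in place of Atp5if1 with averaged probe sets. Between 641 and 64.1 mg/kg the count was 0 in place of 1 with the mean of a gene's probe sets, where Atp5if1 was not called. Along the dose order the count of 3 became 1 with the replicate number as a block (adjusted p for Ndufb1 and Uqcrh 0.0628 and 0.0623), 1 with median-centred arrays, 7 with the filter, 5 with the variance trend, and 1 to 3 without 1 array; with averaged probe sets it was 4 (Atp5mf, Cox7c, Ndufb1, Uqcrh), without Atp5if1. The replicate block changed no call of a member at 641 mg/kg.

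The log2 difference of Atp5if1 at 641 mg/kg lay between 0.22 and 0.389 over 44 alternatives (adjusted p 2.96e-05 to 0.0503). Class medians at each dose kept within 1 SD of the array medians in all 1995 values checked over the alternatives. At 641 mg/kg this SD exceeded the median itself for the core subunits and assembly factors of complex I and for complexes II, III and V. For these classes the check could not show that the sign was kept. Signs turned for uncalled genes near 0 in the 36 fits without 1 array. At 641 mg/kg, Cox4i2 ran from -0.0286 to 0.0549 and was below 0 in 7 fits (without vehicle replicate 1 or 2, or replicate 1, 3, 4, 5 or 6 of 641 mg/kg). Cox6b2 ran from -0.0985 to 0.125 and was below 0 in 2 (without replicate 2 or 4 of 641 mg/kg), and Mt-co1 from -0.00741 to 0.0982, below 0 in 1. For these changes the cause was not tested. Vdac1 and Htra2 were called with the filter (adjusted p = 0.0339 and 0.042), and Htra2 without replicate 6 of 641 mg/kg (adjusted p = 0.0259). The signal over background is unknown without detection calls, which limits what can be said of the 7 members below the array medians.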
